A study of Mus musculus with 6 samples.

Results

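The genes described here are 7 regulators of transcription with regional patterns of expression in the developing palate. They are the homeobox genes Barx1, Barx2, Meox1 and Meox2, the zinc finger genes Osr1 and Osr2, and the transcriptional coregulator gene Mn1. They were taken by gene symbol, and the choice was made with earlier results of these data known. All 7 were found among the 23420 genes counted in each library, and all 7 passed the filter on low counts that left 16604 genes for testing.

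Palatal tissue of E14.5 embryos was compared between 2 genotypes of C57BL/6 mice by RNA sequencing, and each genotype had 3 libraries. According to the labels, the dissected tissue was the part that would have become the anterior hard palate. Control embryos were Shox2Cre/+;Nkx2.5F/F and mutant embryos were Shox2Cre/-;Nkx2.5F/F. Both groups therefore carried a Cre allele at Shox2 and homozygous floxed Nkx2-5, and the control libraries, although titled as wild type, kept a single intact Shox2 allele. Cre was expressed from the Shox2 locus, so that Nkx2-5 could be lost in Shox2-expressing cells of both groups. How many embryos went into a library is not stated in the labels, and p-values reflect only the spread among the libraries, which may be technical. The comparison is between groups labelled with and without an intact Shox2 allele, in tissue that forms the bony palatine process of the maxilla. The part of dissection, exact stage and sex of the embryos in the differences between the groups was not tested.

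The palatal shelves are outgrowths of neural crest mesenchyme covered by epithelium, and they are patterned from front to back and from the oral to the nasal side. Shox2 and Msx1 mark the anterior mesenchyme, whereas Barx1, Meox2, Mn1 and Tbx22 are known for stronger expression in the middle and posterior palate. Osr2 is graded across the oral-nasal axis and supports growth and elevation of the shelves. Loss of Osr2, Mn1 or Meox2 is known to give cleft palate in mice.

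The controls held 81950407 to 134813429 counts each and the mutants 52668242 to 53331397, so every control was sequenced more deeply than every mutant. Levels are given as CPM, counts scaled to a common library total after TMM adjustment between libraries. Shox2 stood at 68.2 to 88.2 CPM in the controls and at 3.13 to 5.3 CPM in the mutants, low in every library labelled mutant. All 12 markers of palatal mesenchyme were measured in both groups. Their summed level was 10200 to 19800 CPM in the controls and 15200 to 16300 CPM in the mutants, with 1 marker higher, 5 lower and 6 not called. Most of that sum was collagen RNA, with control means of 4440 CPM for Col1a1, 4940 CPM for Col1a2 and 3220 CPM for Col3a1. The sum is therefore no measure of the mesenchyme share. The markers called lower were Prrx2, Twist1, Pdgfra, Tfap2b and Tbx15, and the marker called higher was Tfap2a. All 14 epithelial markers were higher in the mutants (summed level 1190 to 1970 CPM against 6460 to 7370 CPM), as were 7 of 8 macrophage markers (57 to 90.1 CPM against 206 to 312 CPM). The 5 tested markers of ciliated nasal epithelium were also higher (26 to 128 CPM against 466 to 534 CPM). All 9 tested osteoblast markers were lower (870 to 3410 CPM against 261 to 474 CPM). With the mean level of 4 Y-linked genes as a covariate, 4 of these osteoblast markers were called. That Y-linked mean was higher in every mutant than in every control, so the covariate is partly confounded with genotype. Red blood cell genes had 3 of 5 lower (213 to 639 CPM against 25.7 to 38.4 CPM), among them embryonic globin Hbb-y (mean 325 against 8.87 CPM). Skeletal muscle had 6 of 9 markers lower, 1 with limma-voom and 2 or 3 without any single mutant replicate. Chondrocyte markers (3 of 7 lower) and markers of muscle connective tissue and tendon (2 of 5 lower) had sums that were lower in every mutant, and mural cell markers (2 of 7 higher) a sum that was higher in every mutant. The sums of endothelial markers (0 of 8 called) and of nerve and glia markers overlapped between the groups. Of the 7 nerve and glia markers, 3 were lower, 1 was higher and 3 were not called. Those lower were Tubb3 (mean 38.9 against 5.09 CPM), Elavl4 and Stmn2, and Erbb3 was higher (28.2 against 70.3 CPM). Control replicate 1 stood apart from its group, with the lowest osteoblast sum (870 CPM, against 3410 and 2960 CPM) and the highest skeletal muscle sum (77.3 CPM, against 13 and 30.7 CPM). In mutant replicate 1, 99.7% of counts from 5 to 50 were even numbers, against 63.6% to 73% in the other libraries, and the labels and headers do not say how this came about.

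Among the 7 factors Barx1 fell in the mutant tissue and the other 6 did not pass the test. The threshold was an adjusted p of 0.05 from the edgeR quasi-likelihood test over all tested genes, by which 45.8% of all tested genes were called, 24.1% higher and 21.7% lower. Control and mutant libraries did not overlap for Barx1 alone of the 7. They did not overlap for 58.9% of all tested genes, 29.7% higher and 29.2% lower in the mutant. The median log2 fold change of the 7 was -0.04, and that of all tested genes was 0. The median size of the change, taken without its sign, was 0.17 for the 7 and 0.38 for all tested genes.

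**Figure D1:**
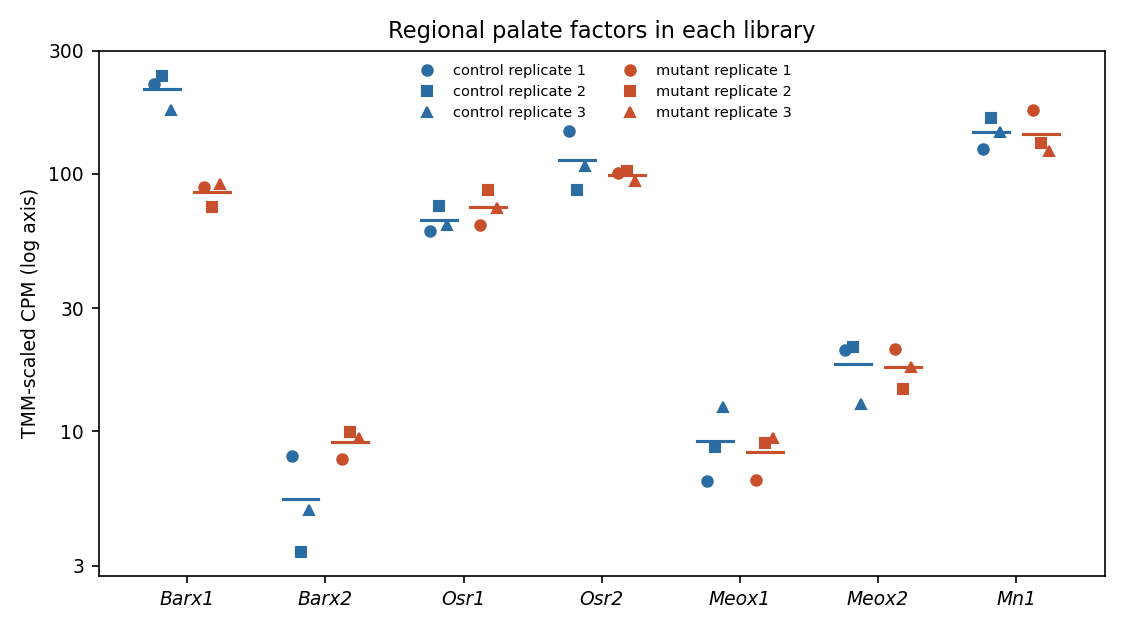
Level of each of the 7 factors in each library, in TMM-scaled CPM on a log axis. Circles, squares and triangles are replicates 1, 2 and 3, and horizontal lines are group means. For Barx1 the controls (177 to 239 CPM) lie above the mutants (74.2 to 91.5 CPM), and for the other 6 genes the groups overlap.

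Barx1 encodes a homeodomain factor of posterior palatal mesenchyme, molar tooth mesenchyme and stomach mesenchyme. Its level was 223, 239 and 177 CPM in the controls (replicates 1 to 3 in order) and 88.7, 74.2 and 91.5 CPM in the mutants. The lowest control lay well above the highest mutant, and both groups were tight, with coefficients of variation of 15% and 10.9%. The group means were 213 ± 31.9 and 84.8 ± 9.27 CPM (SD, n = 3 each), 2.51-fold lower in the mutant. The log2 fold change was -1.33 (SE 0.13, 95% interval -1.64 to -1.02, edgeR adjusted p = 0.000446), at percentile 2.8 of all tested genes. Barx1 stayed called when libraries were scaled to the 12 palatal mesenchyme markers, with a smaller log2 fold change of -0.87 (edgeR adjusted p = 0.00163). In bulk tissue, fewer Barx1-expressing cells and less Barx1 RNA per cell cannot be told apart. Markers of epithelium, macrophages, osteoblasts, red blood cells, muscle, cartilage and nerve moved between the groups as given above. The part of these markers in the fall of Barx1 was not tested.

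Barx1 lies on chromosome 13 from 48662998 to 48666507 on the plus strand (GENCODE M21 on GRCm38), in 4 exons, and no other annotated gene overlaps it. Its promoter is shown because Barx1 is the factor that fell. The sequence is the 212 bases before the annotated gene start, chr13:48662786-48662997 on the plus strand of GRCm38.p6, from RefSeq. Capitals mark GGGCGG, the GC box, on either strand.

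Barx1 promoter: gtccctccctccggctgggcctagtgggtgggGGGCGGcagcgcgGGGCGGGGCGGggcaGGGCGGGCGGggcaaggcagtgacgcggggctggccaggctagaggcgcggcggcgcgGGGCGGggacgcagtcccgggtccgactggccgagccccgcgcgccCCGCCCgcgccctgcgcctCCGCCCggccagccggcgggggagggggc

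The window was 85.4% G and C, against a median of 51.9% over 32851 promoter windows of the same length. It held 8 matches to GGGCGG, with both strands counted and overlaps of neighbouring matches allowed, and 27.2% of all windows held at least 1. The letters TAAT, the core bound by many homeodomain proteins, were not in this window on either strand, and 51.6% of all windows held them. The TATA box, here the letters TATAAA, was also not found (9.64% of all windows held it). The annotated Barx1 transcript itself was 65% G and C. With the counts corrected for GC content and exon length, the log2 fold change of Barx1 was -1.3 (edgeR adjusted p = 0.000455).

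Meox2, a homeobox gene whose loss leads to breakdown of the fused palate, did not pass the test. Its level was 20.7, 21.3 and 12.8 CPM in the controls (replicates 1 to 3 in order) and 20.8, 14.6 and 17.8 CPM in the mutants. The lowest value of all was control replicate 3, and the highest control and mutant values differed by less than 1 CPM. Means were 18.3 ± 4.79 and 17.7 ± 3.12 CPM (SD, n = 3 each), with a log2 fold change of -0.04 (SE 0.22, 95% interval -0.57 to 0.48, edgeR adjusted p = 0.889). That interval holds both falls and rises of nearly equal size. Meox2 lies on chromosome 12 from 37108540 to 37179534 on the plus strand, in 3 exons.

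The Meox2 promoter is printed for comparison with that of Barx1, since these were the 2 of the 7 genes with a RefSeq promoter entry here. It spans the 250 bases before the start site, chr12:37108290-37108539 on the plus strand of GRCm38.p6. Capitals mark the GC box, the homeodomain core and the TATA box, spelled as for Barx1, on either strand.

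Meox2 promoter: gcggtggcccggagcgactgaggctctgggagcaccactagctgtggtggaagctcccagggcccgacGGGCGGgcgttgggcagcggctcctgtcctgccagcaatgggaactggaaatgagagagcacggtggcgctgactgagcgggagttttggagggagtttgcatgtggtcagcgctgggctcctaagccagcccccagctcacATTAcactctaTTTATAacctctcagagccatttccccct

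This window was 62% G and C and held 1 match to each of the 3 motifs, those to the homeodomain core and the TATA box on the minus strand. Of all windows of 250 bases, 32.7% held a GC box, 54.9% a homeodomain core and 12.4% a TATA box. The pair thus differed in base composition and in the number of GC boxes. These matches are descriptions of letters, and binding was not measured.

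Mn1, a coregulator needed for growth of the middle and posterior palate and for expression of Tbx22 there, also did not pass. Its level was 125, 164 and 145 CPM in the controls (replicates 1 to 3 in order) and 176, 131 and 122 CPM in the mutants. The highest and the lowest of the 6 values were both mutants, and the controls lay between them. The means were 145 ± 19.4 and 143 ± 29.1 CPM (SD, n = 3 each), with a log2 fold change of -0.01 (SE 0.16, 95% interval -0.38 to 0.35, edgeR adjusted p = 0.949). With replicate 1 of both groups left out, Mn1 was called lower (log2 fold change -0.3, edgeR adjusted p = 0.0156). When scaled to the mesenchyme markers it was called higher (0.46, edgeR adjusted p = 0.0308). Mn1 lies on chromosome 5 from 111417362 to 111457033 on the plus strand, in 2 exons.

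Osr2 encodes a zinc finger factor of palatal mesenchyme and did not pass the test. Its level was 146, 86.2 and 107 CPM in the controls (replicates 1 to 3 in order) and 101, 102 and 93.7 CPM in the mutants. The mutants were nearly equal, with a coefficient of variation of 4.7%, and lay within the span of the controls, whose coefficient of variation was 26.8%. Means were 113 ± 30.3 and 98.9 ± 4.61 CPM (SD, n = 3 each), with a log2 fold change of -0.19 (SE 0.17, 95% interval -0.6 to 0.22, edgeR adjusted p = 0.406). Without control replicate 1, which held the highest value, the log2 fold change was 0.02. With the Y-linked covariate, which is partly confounded with genotype, Osr2 was called lower (-0.6, edgeR adjusted p = 0.00706). Osr2 lies on chromosome 15 from 35296098 to 35303305 on the plus strand.

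Osr1, the paralog of Osr2 and a regulator of kidney, heart and connective tissue development, had fewer counts than Osr2 in every library and did not pass. It stood at 59.7, 75.2 and 63.1 CPM in the controls (replicates 1 to 3 in order) and at 63.3, 86.7 and 73.4 CPM in the mutants. In each group replicate 2 was the highest and replicate 1 the lowest, and the groups overlapped. The means were 66 ± 8.17 and 74.5 ± 11.7 CPM (SD, n = 3 each), with a log2 fold change of 0.17 (SE 0.13, 95% interval -0.14 to 0.49, edgeR adjusted p = 0.324). Scaled to the mesenchyme markers Osr1 was called higher (0.64, edgeR adjusted p = 0.00245). Osr1 lies on chromosome 12 from 9570116 to 9581500 on the plus strand.

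Barx2, the paralog of Barx1, is known from epithelia and from muscle precursors. Its level was 7.98, 3.4 and 4.96 CPM in the controls (replicates 1 to 3 in order) and 7.81, 9.93 and 9.44 CPM in the mutants. Control replicate 1 lay just above the lowest mutant, and the other 2 controls lay below all mutants. The means were 5.44 ± 2.33 and 9.06 ± 1.11 CPM (SD, n = 3 each), with a log2 fold change of 0.74 (SE 0.31, 95% interval 0.02 to 1.45). The unadjusted p was 0.0452 and the edgeR adjusted p was 0.0854, so Barx2 did not pass. Barx2 was called higher by DESeq2 (0.74, adjusted p = 0.0415), by limma-voom (0.85, adjusted p = 0.0461) and by edgeR without control replicate 1 (1.1, adjusted p = 0.00917). With the Y-linked covariate its log2 fold change was 0.09 (edgeR adjusted p = 0.772).

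The epithelial markers, all 14 of them higher in the mutants, were set beside Barx2. Against their summed counts, Barx2 had 4.06, 2.87 and 2.52 counts per 1000 in the controls (replicates 1 to 3 in order) and 1.18, 1.54 and 1.28 in the mutants. Relative to this sum Barx2 was therefore lower in every mutant than in every control. The sum is weighted to keratins such as Krt5 (mean 1720 CPM in the mutants) and Krt15 (1370 CPM). Single markers rose by different amounts, from 0.84 on the log2 scale for Epcam to 2.75 for Pkp1. For Epcam alone the statement does not hold. Mutant replicate 2 had 537 Barx2 and 7903 Epcam counts, and control replicate 2 had 343 and 7796. The other markers were not set beside Barx2 singly. Whether the epithelial markers had a part in the level of Barx2 was not tested. Barx2 lies on chromosome 9 from 31846044 to 31913462 on the minus strand.

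Meox1, the paralog of Meox2 and a gene of somites and sclerotome, was expressed at a low level and did not pass. It stood at 6.4, 8.65 and 12.4 CPM in the controls (replicates 1 to 3 in order) and at 6.47, 8.99 and 9.4 CPM in the mutants. The span of the controls covered all of the mutant values. Means were 9.15 ± 3.04 and 8.29 ± 1.59 CPM (SD, n = 3 each), with a log2 fold change of -0.15 (SE 0.27, 95% interval -0.77 to 0.48, edgeR adjusted p = 0.686). Its interval was the widest of the 7 after that of Barx2. Skeletal muscle markers, which somite derivatives express, were low throughout (summed level 13 to 77.3 CPM in the controls and 8.73 to 13.1 CPM in the mutants). Meox1 lies on chromosome 11 from 101877510 to 101894374 on the minus strand.

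**Figure D2:**
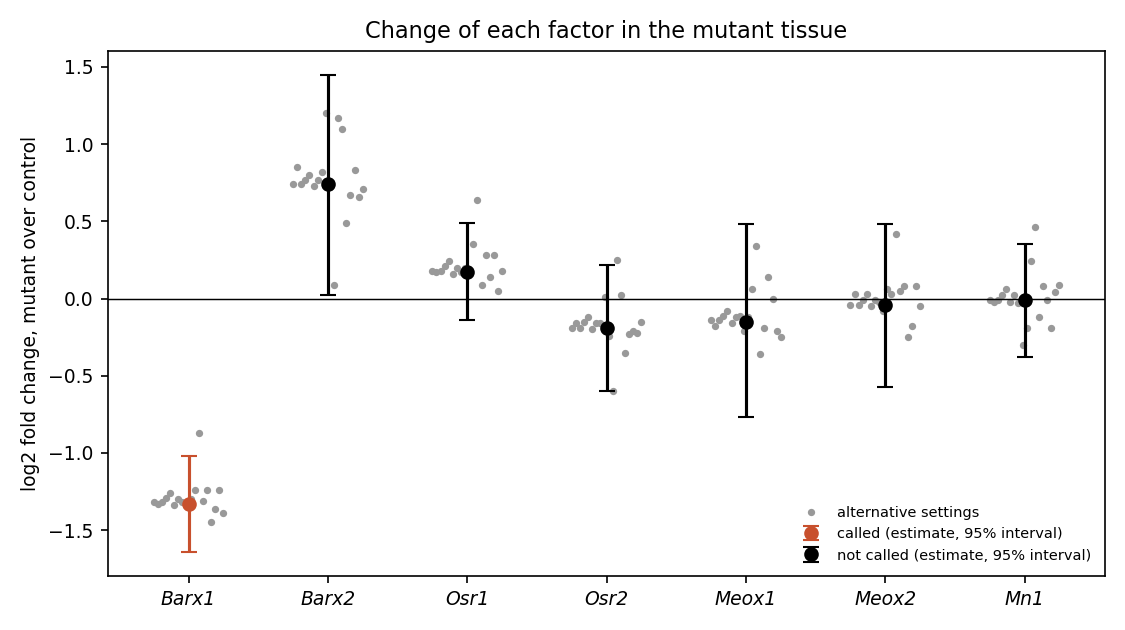
Log2 fold change of each factor, mutant over control, with its 95% interval, and as grey points the values under 18 other settings. Barx1 lies below 0 under every one of the 18 settings (-1.45 to -0.87), and the values of Osr2, Meox1, Meox2 and Mn1 fall on both sides of 0.

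Levels of different genes were compared per kilobase of annotated exon, as CPM per kb. In the controls Barx1 led at 152 ± 22.8 CPM per kb (SD, n = 3), followed by Osr1 (32), Osr2 (31.2), Mn1 (20.8), Meox2 (7.74), Meox1 (4.11) and Barx2 (2.77). In that order Osr1 and Osr2, Meox2 and Meox1, and Meox1 and Barx2 were neighbours whose ranges over the controls overlapped. Barx1 was above all the others in every control, and its lowest value (127 CPM per kb) was over 3 times the highest of Osr1 (36.4 CPM per kb).

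In the mutants Barx1 still led at 60.6 ± 6.63 CPM per kb (SD, n = 3), followed by Osr1 (36), Osr2 (27.3), Mn1 (20.6), Meox2 (7.51), Barx2 (4.6) and Meox1 (3.72). Barx1 and Osr1 were closer than in the controls but did not overlap (lowest 53.1 against highest 42 CPM per kb). Barx2 and Meox1 stood in the opposite order to the controls, and their ranges overlapped in both groups. The order rests on the annotated exon lengths, from 1399 bases for Barx1 to 6940 bases for Mn1.

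Ratios of paralogs within a library do not depend on how libraries are scaled. The log2 ratio of Barx2 to Barx1 counts was -4.8, -6.13 and -5.16 in the controls (replicates 1 to 3 in order) and -3.5, -2.9 and -3.28 in the mutants. Every mutant ratio lay above every control ratio, by 2.14 on the log2 scale on average, a 4.4-fold higher ratio. It joins the fall of Barx1 with a change of Barx2 that was not called. The part of tissue composition in this ratio was not tested. The exact permutation test over libraries (two-sided, n = 3 each) gave p = 0.1, the smallest that 3 against 3 allows, or 0.3 adjusted over the 3 paralog pairs.

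The log2 ratio of Osr1 to Osr2 was -1.29, -0.2 and -0.76 in the controls (replicates 1 to 3 in order) and -0.67, -0.24 and -0.35 in the mutants. The groups overlapped, and the mutant mean was 0.33 higher (exact permutation p = 0.5, adjusted 0.75, n = 3 each). The log2 ratio of Meox1 to Meox2 was -1.69, -1.3 and -0.04 in the controls (replicates 1 to 3 in order) and -1.69, -0.7 and -0.92 in the mutants. The means differed by -0.09 (exact permutation p = 1, adjusted 1, n = 3 each), far less than the SD of 0.87 among the controls.

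**Figure D3:**
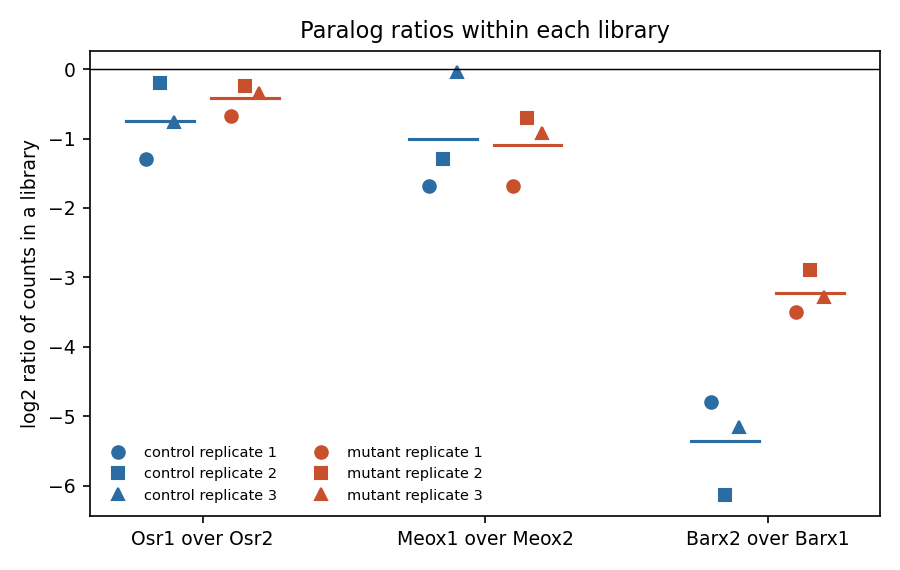
Log2 ratio of the counts of paralogs in each library, with group means as lines. Controls and mutants are separate for Barx2 over Barx1 (-6.13 to -4.8 against -3.5 to -2.9) and overlap for both other pairs.

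The genes whose pattern over the 6 libraries was most like that of each factor were found by the root mean square distance of centred log2 CPM among 14140 genes. For Barx1 they were Nme1, a nucleoside diphosphate kinase gene (distance 0.1), Rims3 (0.109) and Snrpg (0.141), with log2 fold changes of -1.37, -1.29 and -1.31. For Barx2 they were Sox2, a factor of epithelial progenitors (0.084), the polarity gene Pard6b (0.115) and Xkr4 (0.118). Pard6b was called higher (0.85, edgeR adjusted p = 0.0243), and Sox2 (0.65, edgeR adjusted p = 0.0885) and Xkr4 (0.69, edgeR adjusted p = 0.121) were not called.

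For Osr1 the nearest genes were Bicc1 (0.033), Islr (0.036) and Hid1 (0.058). For Osr2 they were Bcl11a (0.068), Gstm7 (0.081) and Cacul1 (0.091). For Mn1 they were Pkn3 (0.031), Plod3 (0.05) and Zfp11 (0.055). None of these 9 genes was called. For Meox1 they were Car10 (0.095), Clec9a (0.124) and Fam167a (0.126), and for Meox2 Tmprss7 (0.116), Cox7a1 (0.139) and Arntl2 (0.147). These distances describe 6 libraries that share their 2 groups, and carry no test.

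The regional surroundings of the 7 factors were described with 6 lists of palate and jaw genes, which hold 44 genes once each. Of the 42 tested, 9 rose, 18 fell and 15 did not pass, so that 64.3% were called, against 45.8% of all tested genes. The lists were chosen with earlier results of these data known, so the difference between these shares is no test of the lists. Some genes stand in 2 lists.

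Of 10 anterior palate genes, 4 fell, 1 rose and 5 did not pass, with a median log2 fold change of -0.33. The homeobox gene Msx1, without which the palate stays cleft, fell by 2.07 on the log2 scale (SE 0.14, edgeR adjusted p = 0.000229), and Alx1, a paired-type homeobox gene, rose by 0.65 (SE 0.12, edgeR adjusted p = 0.00451). Fgf10, a mesenchymal growth factor (-0.46, SE 0.14), and Inhba, which encodes an activin subunit (-1.02, SE 0.33), fell as well. Inhba was not called without any single mutant replicate, and Fgf10 without control replicate 2 or 3 or mutant replicate 1 or 3. Scaled to the mesenchyme markers, Fgf10 stood at 0 (edgeR adjusted p = 0.987) and Inhba at -0.6 (edgeR adjusted p = 0.179), and 1 gene of the list was called lower. Inhba was also not called by limma-voom (-0.86, adjusted p = 0.115), and its log2 fold change with the Y-linked covariate was -1.69. With that covariate Alx1 (0.59, edgeR adjusted p = 0.0531) and Fgf10 (-0.5, edgeR adjusted p = 0.108) were not called. The GC and length correction ended the call of Fgf10 as well (-0.37, edgeR adjusted p = 0.0556). The number that fell was 2 without any single mutant replicate and 2 with library size only. With mutant replicate 1 left out, 2 of these genes rose.

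Of the 5 genes listed with the posterior palate and Mn1, 3 rose and 2 did not pass, and none fell. Their median was 0.5. Those that rose were Sim2 (1.29, SE 0.16, edgeR adjusted p = 0.000876), Fgfr2 (0.39, SE 0.08) and Pax9 (0.5, SE 0.12). Sim2 encodes a transcription factor of the bHLH-PAS family, Fgfr2 a growth factor receptor with a known epithelial form, and Pax9 a paired-box factor of the whole palatal mesenchyme, so none of them is a marker of the posterior palate alone. Tbx22, the T-box factor of the posterior palate, had 14.2, 10.5 and 6.73 CPM in the controls (replicates 1 to 3 in order) and 13.1, 17.4 and 14.6 CPM in the mutants, and was not called (0.52, SE 0.27, edgeR adjusted p = 0.15). Ccnd2, a cyclin gene lowered in palates without Mn1, was not called either (-0.03, SE 0.14). Tbx22 was called higher without control replicate 1 (0.79, edgeR adjusted p = 0.0318) and with the mesenchyme scaling (0.96, edgeR adjusted p = 0.021). Pax9 was not called with the Y-linked covariate (0.25, edgeR adjusted p = 0.117). With replicate 1 of both groups left out, all 5 were called higher.

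Of 9 palate genes linked with Osr2, 3 rose, 4 fell and 2 did not pass, with a median of -0.27. Bmp3, a member of the BMP family (1.07, SE 0.12, edgeR adjusted p = 0.00058), and the guidance gene Sema3d (0.77, SE 0.13) rose with Pax9. The related guidance gene Sema3e fell (-0.88, SE 0.1, edgeR adjusted p = 0.000645), as did Mef2c (-1.02, SE 0.25), Fgf10 and Sema3a (-0.41, SE 0.11). Tgfb3 (-0.02, SE 0.19) and Bmp5 (-0.27, SE 0.22) did not pass. Sema3a was not called without control replicate 2 or 3 or mutant replicate 1 or 2. The number that fell was 2 without control replicate 2, control replicate 3 or mutant replicate 1. With the Y-linked covariate Mef2c (-0.37, edgeR adjusted p = 0.214), Sema3a (-0.29, edgeR adjusted p = 0.205), Fgf10 and Pax9 were not called, which left 1 gene lower. Scaled to the mesenchyme markers, Sema3a stood at 0.06 (edgeR adjusted p = 0.635) and 2 genes were called lower. Tgfb3 was called higher with that scaling (0.47, edgeR adjusted p = 0.0331) and lower with replicate 1 of both groups left out (-0.32, edgeR adjusted p = 0.00987).

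Of 9 genes of the oral-nasal axis, 4 fell and 5 did not pass, and none rose. Their median was -0.64. Those that fell were the forkhead gene Foxf1 (-0.94, SE 0.1, edgeR adjusted p = 0.000568), the hedgehog pathway genes Gli1 (-0.86, SE 0.14) and Ptch1 (-0.75, SE 0.18), and the homeobox gene Dlx5 (-1.54, SE 0.33), known from the nasal side. Foxf2, a close relative of Foxf1, stood at -0.04 on the log2 scale (SE 0.1). Shh, the ligand from the oral epithelium, stood at -0.32 (SE 0.19). Fgf7, a growth factor of the nasal side, missed the threshold (-0.64, SE 0.24, edgeR adjusted p = 0.0653). Without control replicate 1 Fgf7 was called lower (-0.85, edgeR adjusted p = 0.0117), as it was by DESeq2 (-0.63, adjusted p = 0.0265). With the Y-linked covariate Dlx5 (-0.97, edgeR adjusted p = 0.114) and Ptch1 (-0.76, edgeR adjusted p = 0.0666) were not called, which left 2 genes lower. Scaled to the mesenchyme markers, Ptch1 was not called (-0.29, edgeR adjusted p = 0.177) and Foxf2 was called higher (0.41, edgeR adjusted p = 0.0254).

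Barx1 is best known as a gene of molar mesenchyme, and 10 genes listed under tooth field mesenchyme were set beside it. Of these 6 fell, 2 rose and 2 did not pass, with a median of -1.35. The homeobox genes Dlx1 (-2.66, SE 0.12, edgeR adjusted p = 0.000108), Dlx2 (-2.32, SE 0.12), Msx1 and Lhx6 (-1.77, SE 0.13) fell. Lhx8 (-1.1, SE 0.17) and Lef1 (-1.6, SE 0.16) also fell. The 2 that rose were Isl1 (1.74, SE 0.21) and Pitx1 (0.94, SE 0.21). Epithelial markers were higher in the mutants as given above, and their part in these rises was not tested. Markers of tooth germ epithelium were measured beside them, with 3 of 9 lower, 1 higher and 5 not called. Their summed level was 103 to 165 CPM in the controls and 106 to 135 CPM in the mutants.

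The 6 somite genes linked with Meox1 and Meox2 were mostly low. Uncx and Nkx3-2 were too low to be tested, at no more than 0.0151 and 0.166 CPM in any library. Pax3, also a neural crest gene, rose (1.16, SE 0.15, edgeR adjusted p = 0.00102). The T-box gene Tbx18 (-2.11, SE 0.5, edgeR adjusted p = 0.0121) and Tcf15 (-2.05, SE 0.52, edgeR adjusted p = 0.0156) fell, and Pax1 did not pass (0.24, SE 0.37). Tcf15 was not called without mutant replicate 2 or without mutant replicate 3 (edgeR adjusted p = 0.0519 and 0.0552), nor with the Y-linked covariate (-1.91, edgeR adjusted p = 0.0764). Without mutant replicate 1 its log2 fold change was -2.83. Among the controls Tbx18 was highest in replicate 1 and stood at 4.23 and 4.92 CPM in replicates 2 and 3, and without control replicate 1 its log2 fold change was -1.34 (edgeR adjusted p = 0.00741). With the Y-linked covariate Tbx18 had -2.97, and limma-voom did not call it (-1.8, adjusted p = 0.0582).

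**Figure D4:**
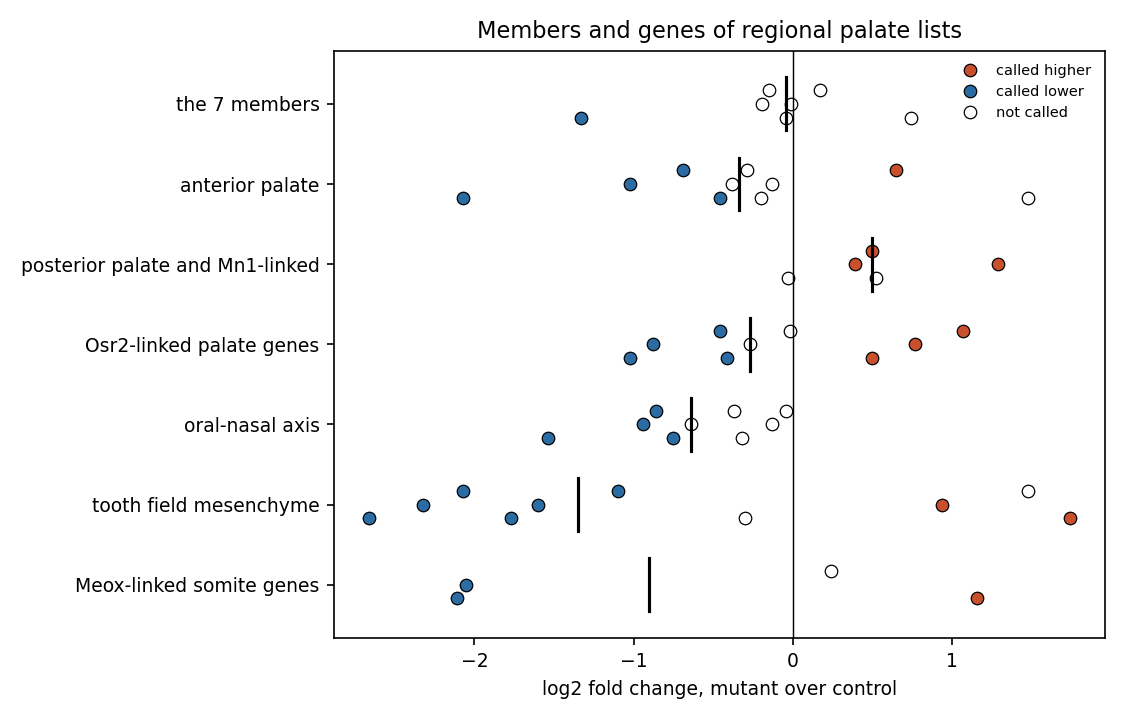
Log2 fold change, mutant over control, of the 7 factors and of each tested gene of the 6 lists, where each point is a gene, filled points passed the test and vertical lines are list medians. The medians run from -1.35 for tooth field mesenchyme to 0.5 for the genes listed with the posterior palate, and 6 of the 7 factors are open points.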

How the data were processed

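Whole-number read counts per gene symbol were deposited, 1 file per library. HISAT2 and StringTie and the builds mm9 and mm10 are named per the submitters' processing notes, and HISAT2 per the file headers. The sources used here do not name the read counter, its strand setting or the annotation. Of the 7 genes, 5 overlap another annotated gene, with 0 shared exon bases.

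Counts were analysed with edgeR 4.0.16 in R 4.3.3: filterByExpr by group, TMM scaling and the quasi-likelihood F test over all 6 libraries without covariates, with Benjamini-Hochberg adjustment over 16604 genes. Standard errors were derived from the F statistic. The test was also run on simulated counts with far fewer changed genes than were called here, so that run does not show how it performs on these data. Log2 CPM used a prior count of 2 and paralog ratios a pseudocount of 0.5. Alternatives used DESeq2 1.42.0, limma 3.58.1, other scalings and filters, a replicate block and libraries left out. The GC and length correction, the Y-linked covariate and the mesenchyme scaling were chosen after seeing the data.

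Positions and exon lengths came from GENCODE M21 (21777 of 23420 symbols matched) and promoters from RefSeq. The members and gene lists were chosen with earlier results of these data known. Named were the 7 members, the 3 nearest genes to each, and in each list up to 4 called genes with the smallest p. Other list genes were chosen after their values were seen. Some list genes are counted but not reported by name here. Replicates were compared by chi-square over genes and differed by more than sampling noise (at least 15.6 per degree of freedom).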

Additional observations from a re-analysis of the deposited data

How the results depend on the processing

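Barx1 was called lower under all 18 alternative settings, with log2 fold changes of -1.45 to -0.87 and adjusted p of 3.75e-19 to 0.00575. Calls over all genes stayed within 1.5 times of 3999 higher and 3607 lower, except for 2309 lower with the Y-linked covariate and 8588 higher and 581 lower with scaling to the palatal mesenchyme markers. That scaling moved the median of all tested genes by 0.465 on the log2 scale, and among its 12 markers Tbx15 (-3.48) and Tfap2b (-2.69) fell themselves. Barx2 passed with DESeq2 (0.74), limma-voom (0.85), replicate 1 of both groups left out (1.2) and the mesenchyme scaling (1.17). Without 1 library it ranged from 0.49 to 1.1. Osr1 passed with the mesenchyme scaling (0.64). Osr2 passed with the Y-linked covariate (-0.6) and changed sign with replicate 1 of both groups left out (0.01) and the mesenchyme scaling (0.25). Without 1 library it ranged from -0.35 to 0.02. Meox2 changed sign with limma-voom (0.03), library size only (0.03), the GC and length correction (0.06), the Y-linked covariate (0.03) and the mesenchyme scaling (0.42), and ranged from -0.25 to 0.08 without 1 library. Meox1 changed sign with the Y-linked covariate (0.06) and the mesenchyme scaling (0.34), and ranged from -0.36 to 0.14 without 1 library. Mn1 changed sign with upper quartile scaling (0.02), library size only (0.06), the filter of at least 1 CPM in 3 libraries (0.02), the Y-linked covariate (0.24) and the mesenchyme scaling (0.46, called), and was called lower with replicate 1 of both groups left out (-0.3). Without 1 library it ranged from -0.19 to 0.09. The difference in the log2 ratio of Meox1 to Meox2 ranged from -0.43 to 0.4 without 1 library. Same-numbered libraries share only a number, with correlations of their deviations of 0.02 to 0.082, and the replicate block gave 3720 higher and 3302 lower calls, with 1 of the 7 factors called. The 4 Y-linked genes had a mean of 5.45, 3.09 and 4.36 log2 CPM in control replicates 1, 2 and 3. Their mean was 5.58, 5.83 and 5.63 log2 CPM in mutant replicates 1, 2 and 3. Every mutant thus exceeded every control, and effects fitted with this covariate cannot be fully told apart from genotype. Counts of the factors were at least 343 in every library. How far depth and the spread between libraries each set the width of the intervals of the low genes Barx2, Meox1 and Meox2 was not tested.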
